A study of Homo sapiens with 6 samples.

Results

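Apolipoproteins are the proteins that coat plasma lipoprotein particles, and the genes described here encode these proteins together with the factors that load, secrete, hydrolyse, remodel, bind and export the particles. The set held 32 gene symbols, chosen by function, and a gene belonged to it where the symbol column of the deposited tables equalled one of them. Of the 32 symbols, 29 had a row among the 30987 genes of the count table, and 28 of these had enough counts to be tested together with 15528 genes in all. The 3 symbols without a row were LPL, GPIHBP1 and ANGPTL8. LPL and GPIHBP1 were not analysed here, and ANGPTL8 was found by its gene ID under the older symbol C19orf80, so its values are given beside the members and counted in none of the totals.

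The libraries came from HepG2, a cell line derived from a human liver cancer that keeps the ability to make and secrete many hepatocyte plasma proteins. The Ctrl group held 3 libraries of cells transfected with a non-targeting control siRNA, and the siPAIP1 group held 3 libraries of cells transfected with an siRNA against PAIP1, a protein that binds the poly(A) binding protein and acts in translation and mRNA decay. All 6 cultures grew in medium with fetal bovine serum, received the siRNA with a lipid reagent and were harvested 48 h later, and the study describes the libraries of a group as biological replicates. The question was how the messages of lipoprotein genes differ when PAIP1 is depleted. One siRNA against PAIP1 and one cell line were used, so differences between cell lines or between siRNAs are not covered.

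The liver releases triglyceride and cholesterol in very low density particles built on apolipoprotein B and receives cholesterol back through high density particles built on apolipoproteins A-I and A-II. Small exchangeable apolipoproteins of the A, C and E types move between particles and set how fast lipases act on them and which receptors take them up. Hepatocytes make most of these proteins, and the nuclear receptors and liver factors that keep hepatocytes differentiated also control many of their genes.

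PAIP1, the targeted gene, measured 26.8, 22.96 and 26.0 FPKM in the Ctrl libraries and 8.29, 6.54 and 5.47 FPKM in the siPAIP1 libraries. FPKM is a fragment count divided by the exon length of the gene and by the depth of the library, and it allows levels of different genes to be compared. As CPM, the read count per depth after scaling between libraries, the siPAIP1 mean was 26.2% of the Ctrl mean (log2 fold change -1.93, SE 0.132, adjusted p = 0.000918). All percentages of the Ctrl level are ratios of mean CPM, and they can differ from ratios of the FPKM values printed beside them. A gene is called changed where the adjusted p of edgeR's quasi-likelihood test, Benjamini-Hochberg corrected over all 15528 genes, was under 0.05, and every log2 fold change is siPAIP1 relative to Ctrl. The p-values measure the spread between these libraries, which held 29313211 to 34659866 counts each.

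The third siPAIP1 library stood apart. Its FPKM values summed to 412788, against 480363 to 499948 in the other 5 libraries. For APOE it was the lowest siPAIP1 library by FPKM and the highest by CPM. Among 9247 genes with a mean of at least 10 CPM, 357 differed over 2-fold in it from the mean of the other libraries of its group, against 1 to 103 in the other 5 libraries. In 11675 protein-coding genes its level relative to the other siPAIP1 libraries went with transcript length, with a median log2 ratio of -0.149 in 1701 genes with transcripts of up to 1500 bases and 0.393 in 458 genes with transcripts over 10000 bases. Of the 28 tested members, 1 was over 2-fold above and 1 over 2-fold below the other siPAIP1 libraries there, namely LRP1 and CETP. Results of members that rest on this library are given with and without it. Of 7 hepatocyte markers, all exceeded 1 FPKM, and 4 fell (TF, TTR, SERPINA1 and ALB), where 6.2% of all tested genes fell. AFP (log2 fold change -0.46, adjusted p = 0.129), FGB (-0.14, adjusted p = 0.566) and HNF4A (-0.25, adjusted p = 0.268) were not called. The 7 markers summed to 2520 to 2692 FPKM in Ctrl and 1323 to 2168 FPKM in siPAIP1 libraries. Markers of fibroblasts, endothelium, adipocytes and enterocytes reached at most 0.31 FPKM in any library, and of the macrophage markers only LYZ exceeded 1 FPKM. In bulk RNA, fewer cells making a message and less message per cell cannot be told apart.

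Of the 28 tested members, 12 fell in siPAIP1 cells, 1 rose and 15 were not called. Among all tested genes 6.2% fell and 5.68% rose. The median log2 fold change was -0.32 over the members and 0.03 over all tested genes. A negative value was found in 22 of 28 members and in 7007 of all 15528 tested genes. In 6 members the level by the fitted log2 fold change fell to at most 0.5 of Ctrl (CREB3L3, MTTP, ANGPTL4, VLDLR, APOC3 and LIPC). Together with the test, 1.1% of tested genes passed this size of fall. Without the third siPAIP1 library 4 members passed it, and APOC3 (log2 fold change -0.95) and LIPC (-0.87) did not. All 3 siPAIP1 libraries lay below all 3 Ctrl libraries in 16 members, where 17.6% of tested genes did so, and above them in 2 members, where 19% of tested genes did so. These differences moved together with the fall of 4 of the 7 hepatocyte markers given above, whose part in them was not tested. Leaving out the third siPAIP1 library gave 17 lower and 1 higher member, against 12.4% lower and 11.8% higher among 15732 tested genes, and leaving out the third Ctrl library gave 4 lower members, against 1.68% of 16025 tested genes.

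**Figure D1:**
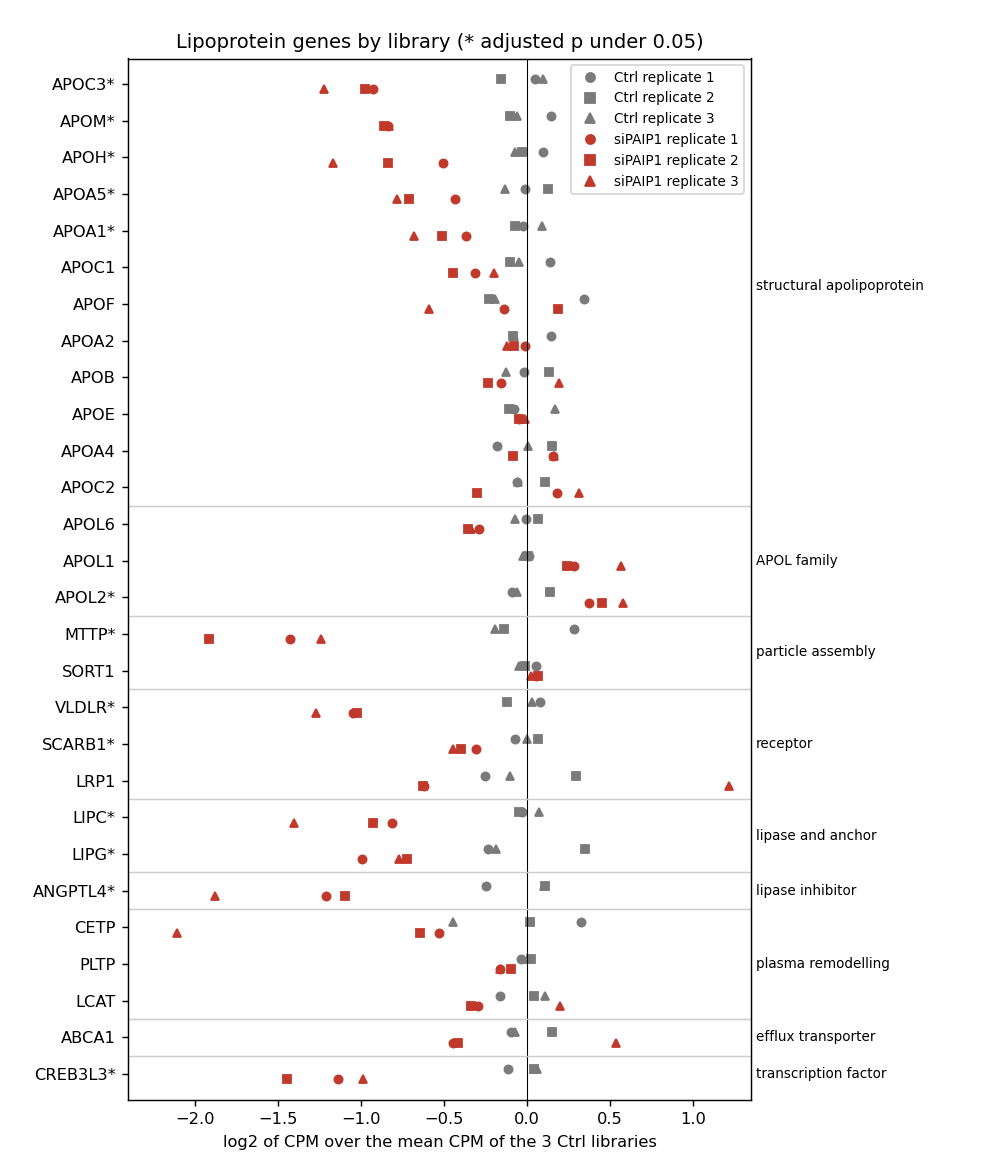
Each point is the CPM of one library divided by the Ctrl mean, on a log2 axis, for the 28 tested members grouped by role, with grey for Ctrl, red for siPAIP1 and a marker shape for each replicate. Stars mark genes called by edgeR's quasi-likelihood test; APOC3, APOM, VLDLR and CREB3L3 show a wide gap between the groups, while LRP1 and ABCA1 have the third siPAIP1 library on the far side of the Ctrl libraries.

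To show what lies upstream of genes that fell, 250 bases before a RefSeq start site (GRCh38.p14) are printed for 4 of them, 5' to 3' along the gene's own strand. They are shown because each holds AAAGGTC, part of the kind of word that HNF4A and other nuclear receptors bind. Capitals mark this word, read as GACCTTT where it lies on the opposite strand. In MTTP they also mark TTTATA, the core promoter word TATAAA on the opposite strand, here 227 bases before the start.

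CREB3L3 (chr19:4153381-4153630, plus strand): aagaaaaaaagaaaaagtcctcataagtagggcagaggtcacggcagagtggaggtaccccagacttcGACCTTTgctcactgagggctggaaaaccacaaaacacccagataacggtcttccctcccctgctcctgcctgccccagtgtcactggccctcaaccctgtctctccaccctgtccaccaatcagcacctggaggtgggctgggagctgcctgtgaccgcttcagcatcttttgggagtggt

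APOA5 (chr11:116792421-116792670, minus strand): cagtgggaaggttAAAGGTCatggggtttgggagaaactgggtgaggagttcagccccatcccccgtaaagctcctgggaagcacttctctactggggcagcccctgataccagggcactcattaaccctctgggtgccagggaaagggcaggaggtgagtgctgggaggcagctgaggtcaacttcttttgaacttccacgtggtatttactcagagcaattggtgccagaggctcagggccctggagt

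LIPC (chr15:58431741-58431990, plus strand): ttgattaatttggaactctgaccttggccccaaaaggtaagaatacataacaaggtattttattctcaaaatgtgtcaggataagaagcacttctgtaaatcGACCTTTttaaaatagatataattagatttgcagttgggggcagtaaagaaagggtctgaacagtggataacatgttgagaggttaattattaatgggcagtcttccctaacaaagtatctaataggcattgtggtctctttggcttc

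MTTP (chr4:99574574-99574823, plus strand): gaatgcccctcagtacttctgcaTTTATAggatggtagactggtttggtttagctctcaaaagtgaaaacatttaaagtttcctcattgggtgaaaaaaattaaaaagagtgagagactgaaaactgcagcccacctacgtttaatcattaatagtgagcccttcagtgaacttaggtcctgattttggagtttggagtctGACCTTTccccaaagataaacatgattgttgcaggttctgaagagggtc

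The words were chosen after these sequences had been read. Windows were available for 19 members, 9 of them called, and AAAGGTC was present on either strand in those of 4 members, the genes printed here. Among 35116 RefSeq windows of the same 250 bases it occurred in 2.62%, a share of windows and not of genes. Some members have several windows, and APOA5 and MTTP each have another window without the word. The member count cannot be weighed against this share, because the word was chosen from these sequences. TATAAA occurred in 10.7% of all windows and in those of 5 members (ABCA1, ANGPTL4, APOC2, MTTP and PLTP). In MTTP it lies 227 bases before the start, and in the others 28 to 31 bases before it. A match describes the letters of these windows and is not evidence of binding.

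CREB3L3 encodes a membrane-bound liver transcription factor that is released by cleavage and is known to activate genes of triglyceride handling, among them APOA4, APOA5 and APOC2. It measured 5.85, 6.47 and 6.71 FPKM in Ctrl and 3.02, 2.46 and 3.05 FPKM in siPAIP1 libraries, with no overlap. The log2 fold change was -1.18 (SE 0.127, adjusted p = 0.00299), leaving 44.2% of the Ctrl level. Of the 3 apolipoprotein genes just named, APOA5 fell, while APOA4 and APOC2 had log2 fold changes of 0.08 and 0.09 and were not called. Of 8 other genes known as CREB3L3 targets, 4 could be tested, and 3 of them fell, against 6.2% of all tested genes. These were HAMP, CIDEC and G6PC. HAMP, the iron hormone hepcidin, had a log2 fold change of -1.90 (adjusted p = 0.00085). The lipid droplet protein gene CIDEC had -0.78 (adjusted p = 0.00535) and G6PC, the last enzyme of glucose release, -1.38 (adjusted p = 0.0150). FABP2 was not called (-0.20, adjusted p = 0.693). G6PC had few reads, with 33, 38 and 36 counts in Ctrl and 18, 12 and 12 in siPAIP1 libraries. The number of these targets that fell was 2 without any one Ctrl library or the second siPAIP1 library.

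Among the structural apolipoproteins, 5 of 12 fell, against 6.2% of all tested genes. The median log2 fold change of these 12 genes was -0.23. APOC3, an inhibitor of triglyceride clearance from plasma, measured 66.2, 57.1 and 69.9 FPKM in Ctrl and 35.4, 34.5 and 26.4 FPKM in siPAIP1 libraries, a fall to 48.8% (log2 fold change -1.04, SE 0.109, adjusted p = 0.00293). APOM, the carrier of sphingosine-1-phosphate on high density particles, measured 23.5, 19.7 and 20.9 FPKM in Ctrl and 12.5, 12.4 and 11.5 FPKM in siPAIP1 libraries, a fall to 55.7% (log2 fold change -0.84, SE 0.0871, adjusted p = 0.0027). For both genes the groups were clearly apart. APOM and APOC3 had 2 of the 3 lowest adjusted p-values among the members.

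APOA1, the main protein of high density particles, measured 556, 534 and 614 FPKM in Ctrl and 462, 421 and 338 FPKM in siPAIP1 libraries (log2 fold change -0.51, SE 0.0997, adjusted p = 0.0189). APOA5, a minor apolipoprotein that promotes triglyceride hydrolysis, measured 10.3, 11.3 and 9.69 FPKM in Ctrl and 8.11, 6.76 and 5.80 FPKM in siPAIP1 libraries (log2 fold change -0.63, SE 0.118, adjusted p = 0.0164). For both genes the groups did not overlap, and the third siPAIP1 library was the lowest. APOH, a phospholipid-binding plasma protein also called beta-2-glycoprotein I, measured 543, 494 and 492 FPKM in Ctrl and 376, 301 and 217 FPKM in siPAIP1 libraries (log2 fold change -0.81, SE 0.158, adjusted p = 0.0189). The siPAIP1 libraries of APOH spread more widely than those of APOA1, and all lay below Ctrl. The calls of these 3 genes were lost when any one Ctrl library or the second siPAIP1 library was left out, with adjusted p from 0.0520 to 0.0952 for APOA1, 0.0536 to 0.0728 for APOA5 and 0.0649 to 0.0893 for APOH by edgeR's quasi-likelihood test. Without the third siPAIP1 library they were lower with adjusted p of 0.00111, 0.000659 and 0.000103.

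The other 7 structural genes were not called, and they included the most abundant message of the set. APOA2, the second protein of high density particles, measured 2828, 2395 and 2462 FPKM in Ctrl and 2665, 2562 and 2255 FPKM in siPAIP1 libraries (log2 fold change -0.07, adjusted p = 0.647). APOE, the receptor ligand of remnant particles, measured 692, 674 and 839 FPKM in Ctrl and 744, 752 and 695 FPKM in siPAIP1 libraries (log2 fold change -0.04, adjusted p = 0.829). APOB, the scaffold of very low density particles, measured 66.3, 73.2 and 62.7 FPKM in Ctrl and 63.3, 60.5 and 73.7 FPKM in siPAIP1 libraries (log2 fold change -0.05, adjusted p = 0.810). The 2 groups overlapped in all 3 of these genes, and no difference beyond the spread between libraries was detected. As CPM, the first and second siPAIP1 libraries of APOB (998.9 and 946) lay below every Ctrl library (1021 to 1222). The third (1274) lay above them. Without the third siPAIP1 library the log2 fold change of APOB was -0.20, and it was not called (adjusted p = 0.114). APOF, an inhibitor of cholesteryl ester transfer, had a log2 fold change of -0.14 (adjusted p = 0.731) and APOA4 one of 0.08 (adjusted p = 0.752), both at under 2.1 FPKM. APOC1, an inhibitor of lipase and transfer protein action, measured 254, 214 and 228 FPKM in Ctrl and 196, 180 and 193 FPKM in siPAIP1 libraries. All its siPAIP1 libraries lay below Ctrl, and its log2 fold change of -0.31 missed the threshold in the full set (adjusted p = 0.0768) and passed it without the third siPAIP1 library (-0.38, adjusted p = 0.00267).

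APOC2, the activator of lipoprotein lipase, had only 62 to 85 counts in a library and a log2 fold change of 0.09 (adjusted p = 0.797). This value is uncertain, because 676 of its 1263 exon bases are shared with APOC4-APOC2, an annotated read-through gene that holds most of the reads of this locus. APOC4-APOC2 had 9140 to 10820 counts in Ctrl and 7214 to 9139 in siPAIP1 libraries, a mean of 302 CPM against 252 CPM (log2 fold change -0.26, adjusted p = 0.0934). Neither gene was called. The sources used here do not give how reads shared by overlapping genes were assigned.

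The 15 genes of the structural and APOL groups together took 0.561%, 0.546% and 0.551% of all counts in Ctrl and 0.507%, 0.482% and 0.503% in siPAIP1 libraries. The mean share was 0.553% ± 0.00726 (SD, n = 3) in Ctrl and 0.497% ± 0.0135 (SD, n = 3) in siPAIP1 libraries. The groups did not overlap, and the exact two-sided permutation test gave p = 0.1, the smallest that 3 against 3 libraries can give.

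**Figure D2:**
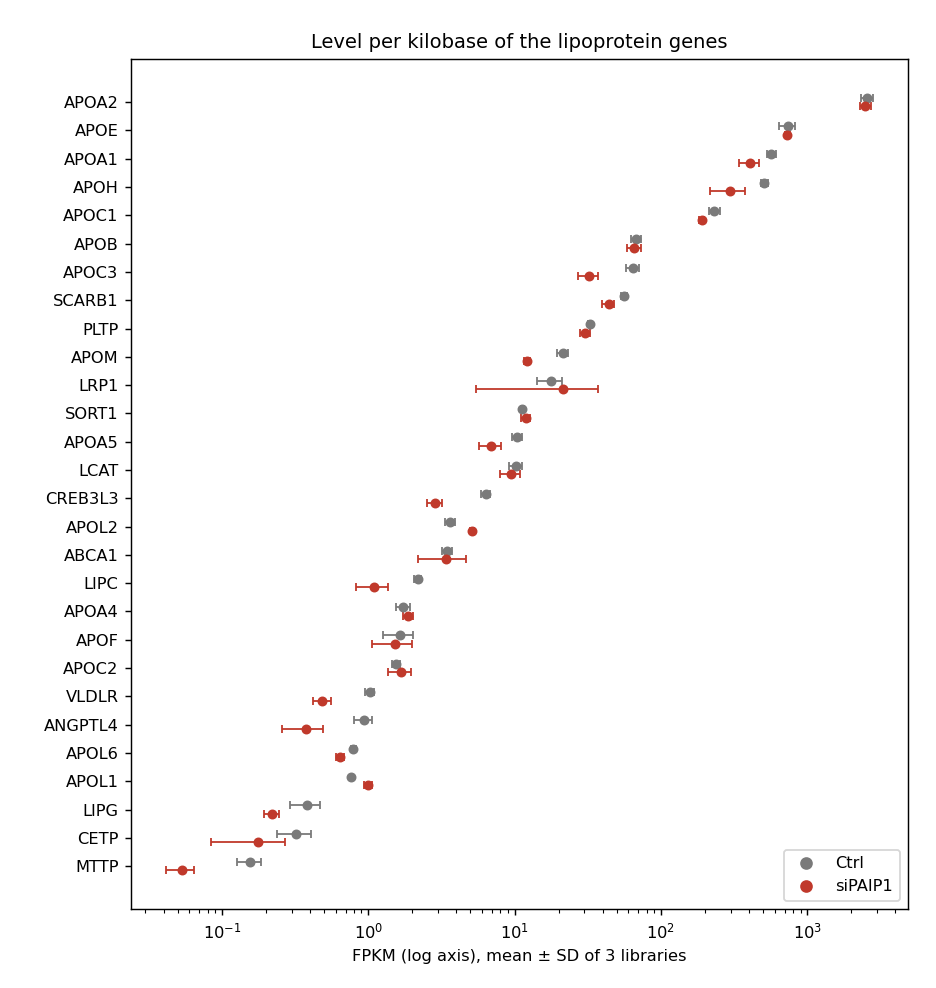
Mean FPKM of each tested member on a log axis in Ctrl (grey) and siPAIP1 (red), with bars for the SD of 3 libraries, ordered by the Ctrl level. The Ctrl means run from 2561 FPKM for APOA2 to 0.157 FPKM for MTTP, and LRP1 has the widest bar in siPAIP1.

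The APOL genes encode proteins related to apolipoprotein L-I, a trypanosome-killing component of high density particles, and most of the others are thought to act inside cells. APOL2 measured 3.40, 3.95 and 3.55 FPKM in Ctrl and 4.93, 5.26 and 5.18 FPKM in siPAIP1 libraries, and it rose to 139% (log2 fold change 0.47, SE 0.0986, adjusted p = 0.0242). It was the only member called higher. APOL1 was at 0.76 FPKM in each Ctrl library and at 0.97, 0.95 and 1.08 FPKM in the siPAIP1 libraries, without overlap and without a call (log2 fold change 0.37, adjusted p = 0.15). APOL6 had the opposite sign, with 0.79, 0.82 and 0.76 FPKM in Ctrl and 0.68, 0.65 and 0.60 FPKM in siPAIP1 libraries (log2 fold change -0.32, adjusted p = 0.0626). Without the third siPAIP1 library the APOL6 value was -0.32 with an adjusted p of 0.0384. The APOL2 call was lost without the first Ctrl library (adjusted p = 0.116), the third (adjusted p = 0.115) or the second siPAIP1 library (adjusted p = 0.0767).

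Of the particle assembly genes, MTTP encodes the transfer protein that loads lipid onto apolipoprotein B in the endoplasmic reticulum. It had 35, 26 and 23 counts in Ctrl and 11, 8 and 11 counts in siPAIP1 libraries, or 0.14 to 0.19 FPKM and 0.04 to 0.06 FPKM. The groups did not overlap, and the level fell to 35.3% (log2 fold change -1.50, SE 0.292, adjusted p = 0.0189), the largest fall in log2 scale among the called members but one that rests on few reads. Its call was lost when any one library other than the third siPAIP1 library was left out, with adjusted p from 0.0556 to 0.101 by edgeR's quasi-likelihood test. SORT1, a sorting receptor for apolipoprotein B in the secretory pathway, measured 11.1 to 11.7 FPKM in Ctrl and 11.01 to 12.5 FPKM in siPAIP1 libraries and was not called (log2 fold change 0.05, adjusted p = 0.647).

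Among the receptors, VLDLR had the lowest adjusted p of all members. It encodes the very low density lipoprotein receptor, which is scarce in normal liver, and lies at chr9:2621182-2660056 on the plus strand. The level was 1.08, 0.94 and 1.06 FPKM in Ctrl and 0.52, 0.53 and 0.41 FPKM in siPAIP1 libraries, a fall to 46.4% (log2 fold change -1.11, SE 0.113, adjusted p = 0.00261). SCARB1, the high density lipoprotein receptor SR-BI, measured 53.2, 58.0 and 56.8 FPKM in Ctrl and 47.4, 44.9 and 39.4 FPKM in siPAIP1 libraries (log2 fold change -0.38, SE 0.0739, adjusted p = 0.0187). Both receptors were lower in every siPAIP1 library. The SCARB1 call was lost without any one Ctrl library or the second siPAIP1 library (adjusted p from 0.0637 to 0.0864), and that of VLDLR was kept in every one of these fits.

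LRP1, the large endocytic receptor of remnant particles, measured 14.9, 21.6 and 16.8 FPKM in Ctrl and 12.1, 12.2 and 39.6 FPKM in siPAIP1 libraries. The first and second siPAIP1 libraries lay below every Ctrl library and the third far above. The log2 fold change was 0.27 (SE 0.486, adjusted p = 0.739) over all libraries and -0.63 (adjusted p = 0.000966) without the third siPAIP1 library, so both the sign and the call of LRP1 turned on that library. ABCA1, the transporter that passes cholesterol to nascent high density particles, showed the same shape, with 3.24, 3.80 and 3.36 FPKM in Ctrl and 2.67, 2.74 and 4.82 FPKM in siPAIP1 libraries. Its log2 fold change was -0.03 (SE 0.257, adjusted p = 0.95) with all libraries and -0.43 (adjusted p = 0.000991) without the third siPAIP1 library. ABCG1, the companion exporter to mature high density particles, had 1 count in all 6 libraries together and was not tested.

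**Figure D3:**
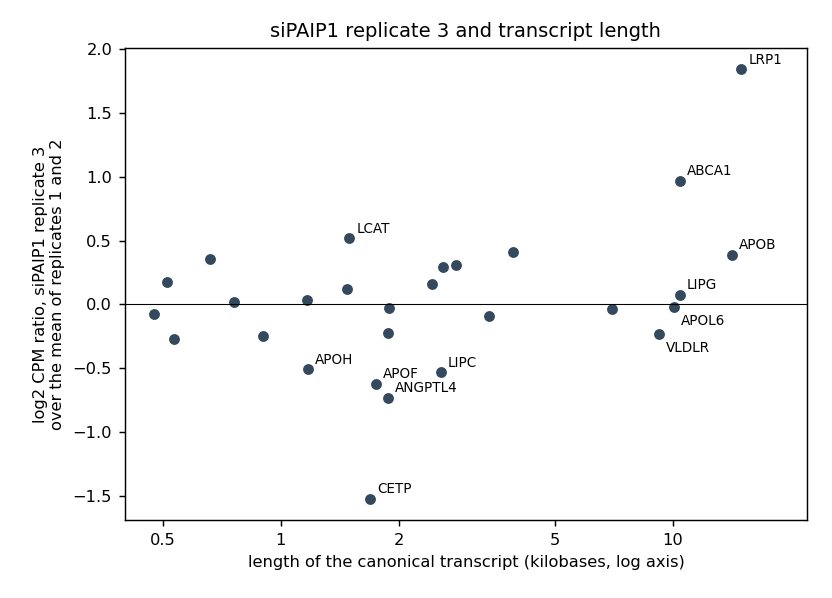
Length of the canonical transcript in kilobases, on a log axis, against the log2 ratio of CPM in the third siPAIP1 library to the mean of the first and second, with one point for each tested member. LRP1 lies at 1.84 and ABCA1 at 0.97, while CETP lies lowest at -1.52.

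Both genes have long transcripts. Of the 5 members with a transcript over 10000 bases, LRP1 (14923 bases) and ABCA1 (10408 bases) exceeded the other siPAIP1 libraries by 1.84 and 0.97 on the log2 scale in the third library. APOB (14121 bases) exceeded them by 0.39, while LIPG (10418 bases) and APOL6 (10065 bases) stood at 0.08 and -0.02. Across all genes with transcripts over 10000 bases, 99 of 458 were over 2-fold above, against 27 of 1701 with transcripts of up to 1500 bases. The part of length in the values of LRP1 and ABCA1 was not tested.

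Both lipases that could be tested fell. LIPC, the hepatic lipase that acts on remnants and high density particles, measured 2.13, 2.09 and 2.32 FPKM in Ctrl and 1.30, 1.21 and 0.79 FPKM in siPAIP1 libraries, a fall to 49.1% (log2 fold change -1.02, SE 0.154, adjusted p = 0.00813). LIPG, the endothelial lipase that hydrolyses phospholipids of high density particles, measured 0.32, 0.48 and 0.34 FPKM in Ctrl and 0.20, 0.25 and 0.21 FPKM in siPAIP1 libraries (log2 fold change -0.82, SE 0.192, adjusted p = 0.0347). For both genes all siPAIP1 libraries lay below Ctrl. Among the fits that left out a library, the LIPC call was lost without the third Ctrl library (adjusted p = 0.0530), and that of LIPG without any one library other than the third siPAIP1 library (adjusted p from 0.0709 to 0.0849).

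ANGPTL4, a secreted inhibitor of lipoprotein lipase, measured 0.78, 1.00 and 1.02 FPKM in Ctrl and 0.42, 0.46 and 0.24 FPKM in siPAIP1 libraries. The level fell to 39.1% (log2 fold change -1.34, SE 0.251, adjusted p = 0.0166), and the call was lost without any one Ctrl library (adjusted p from 0.0562 to 0.0835). C19orf80, the older symbol of ANGPTL8, whose product takes part in inhibiting lipoprotein lipase, measured 10.8, 10.99 and 10.4 FPKM in Ctrl and 6.79, 5.92 and 4.4 FPKM in siPAIP1 libraries (log2 fold change -0.95, SE 0.131, adjusted p = 0.00631). The inhibitors of lipoprotein lipase given here were thus lower in every siPAIP1 library, APOC3 included.

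None of the 3 plasma remodelling genes was called by edgeR's quasi-likelihood test, and none had an unadjusted p under 0.05 (0 of 3, and 0 of 3 called by DESeq2). PLTP, the phospholipid transfer protein, measured 31.9, 33.0 and 33.4 FPKM in Ctrl and 30.6, 32.4 and 28.0 FPKM in siPAIP1 libraries (log2 fold change -0.14, adjusted p = 0.2). LCAT, the enzyme that esterifies cholesterol on high density particles, measured 9.06, 10.4 and 11.2 FPKM in Ctrl and 8.71, 8.51 and 11.2 FPKM in siPAIP1 libraries (log2 fold change -0.12, adjusted p = 0.637). The third siPAIP1 library was the highest for LCAT, and without it the value was -0.32 (adjusted p = 0.0226). CETP, the cholesteryl ester transfer protein, had 30, 24 and 16 counts in Ctrl and 17, 16 and 5 counts in siPAIP1 libraries (log2 fold change -0.92, SE 0.411, adjusted p = 0.190). Without the third siPAIP1 library the CETP value was -0.59 (adjusted p = 0.247). The CETP counts were the lowest of this group of genes.

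Several members are neighbours in the genome. On chromosome 11, APOA5, APOA4, APOC3 and APOA1 lie within chr11:116789367-116837622, a stretch of 48256 bases. In it 3 genes fell, where 6.2% of all tested genes fell, and APOA4 was not called (log2 fold change 0.08). The calls of APOA1 and APOA5 were lost without any one Ctrl library, as given above. The flanking genes within 100000 bases were not called, with log2 fold changes of -0.01 for BUD13, -0.16 for ZPR1 and 0.44 for SIK3. On chromosome 19, none of the members APOE, APOC1 and APOC2 was called in a stretch of 43775 bases by edgeR's quasi-likelihood test. Of these 3 members 1, APOC1, had an unadjusted p under 0.05. It was called by DESeq2 (adjusted p = 0.0375) and by edgeR's quasi-likelihood test without the third siPAIP1 library. Of 8 flanking or interleaved genes 2 fell, where 6.2% of all tested genes fell. The 2 were BCAM (log2 fold change -0.39, adjusted p = 0.0453) and CLPTM1 (-0.28, adjusted p = 0.0489), both close to the threshold. The APOL genes on chromosome 22 lie within 619085 bases.

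**Figure D4:**
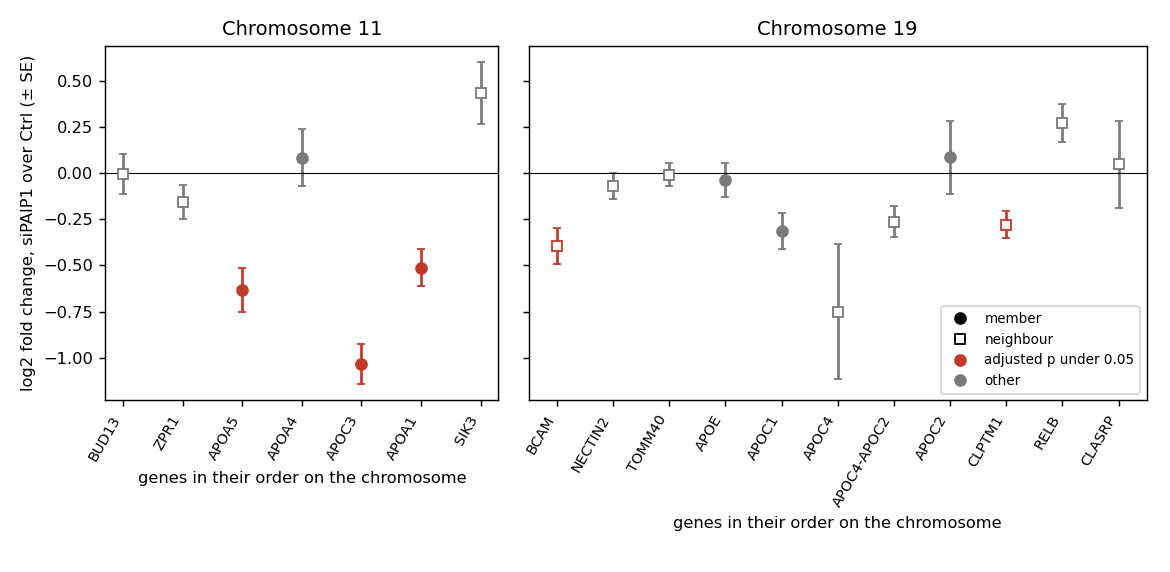
Log2 fold change with its SE for the tested genes of the chromosome 11 and chromosome 19 stretches and their neighbours, in order along the chromosome, with circles for members, squares for neighbours and red where the adjusted p was under 0.05. On chromosome 11 the members APOA5, APOC3 and APOA1 are red and lie below 0, and on chromosome 19 no member is red.

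Other genes of lipoprotein biology were followed in lists set by function. Over all tested genes 6.2% fell in the full set and 12.4% without the third siPAIP1 library. Of 38 tested genes of the lipoprotein pathway outside the members, 6 fell, with a median log2 fold change of -0.21. The number that fell was 1 without any one Ctrl library or the second siPAIP1 library, and 15 without the third siPAIP1 library. They were PDZK1, which anchors SR-BI at the membrane (-1.17, adjusted p = 0.0012), the plasma apolipoprotein J gene CLU (-0.49, adjusted p = 0.0127), the lysosomal cholesterol exporter NPC1 (-0.34, adjusted p = 0.0313), the lysosomal lipase LIPA (-0.53, adjusted p = 0.0322), the fatty acid receptor CD36 (-0.88, adjusted p = 0.0444) and SAR1B, which moves large lipid particles out of the endoplasmic reticulum (-0.34, adjusted p = 0.0456). SAR1B lies outside the 5 genes a list may name and was added after its value was seen. PDZK1 and its partner SCARB1 both fell.

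Among 28 regulators of apolipoprotein genes, 4 fell and 1 rose, where 6.2% of all tested genes fell and 5.68% rose. The median log2 fold change of the regulators was -0.06. The number of regulators that fell was 2 without any one Ctrl library or the second siPAIP1 library. It was 7 without the third siPAIP1 library, where 12.4% of tested genes fell. The liver factor CEBPA had a log2 fold change of -0.63 (adjusted p = 0.0044), the coactivator PPARGC1A -1.08 (adjusted p = 0.00825), the nuclear receptor RORA -0.73 (adjusted p = 0.0168) and the bile acid receptor NR1H4 -0.82 (adjusted p = 0.0222). PPARG, the adipogenic nuclear receptor, rose (0.68, adjusted p = 0.0244). The number of regulators that rose was 1 without the third siPAIP1 library, where 11.8% of tested genes rose. No regulator was called higher without any other one library. HNF4A, a nuclear receptor that binds many of these promoters, was not called (-0.25, adjusted p = 0.268). It measured 28.2, 30.5 and 27.7 FPKM in Ctrl and 23.6, 21.9 and 28.2 FPKM in siPAIP1 libraries. The first and second siPAIP1 libraries of HNF4A lay below every Ctrl library, and only the third overlapped them. Its value was looked up after the promoter words had been chosen. Of 10 tested target genes of the cholesterol sensor LXR, 1 fell, the desaturase gene SCD (-0.67, adjusted p = 0.00679), and of 6 tested targets of PPARA, 1 fell, the lipid droplet coat gene PLIN2 (-0.40, adjusted p = 0.0393). Both counts are to be read against the 6.2% of all tested genes that fell. Without the third siPAIP1 library 3 LXR and 2 PPARA targets fell, where 12.4% of tested genes fell. Without any other one library no PPARA target was called lower by edgeR's quasi-likelihood test.

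One siRNA gave the knockdown, so the members were also searched for its seed. The antisense strand is printed with bases 2 to 8, the seed that can pair with other messages, in capitals.

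siPAIP1 antisense strand: uAUCAUCCaaguauggauctt

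The word complementary to the seed, GGATGAT, was present in the 3' UTR of 1065 of 12531 tested protein-coding genes (8.5%). It was present in 2 of 28 tested members (APOF and LIPG), and in 1 of the 12 that fell (LIPG). Genes with the word had a median log2 fold change of -0.035 and genes without it one of 0.028. Of the 12 members that fell, the other 11 do not hold this word in the 3' UTR searched. Only the canonical transcript of each gene was searched, and the seed of the sense strand was not. Whether the seed acted on any member was not tested.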

How the data were processed

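PolyA RNA of 6 HepG2 cultures was sequenced. Per the labels and the study's methods, the authors trimmed reads and aligned them to GRCh38 with TopHat2. They deposited raw read counts per gene from uniquely mapped reads, and FPKM values with 2 decimals. Libraries were prepared with a directional kit. The sources used here do not name the counting tool, its strand setting or the annotation. For members that overlap other genes (APOC1, APOC2, APOE, APOM, APOA1, LCAT, PLTP, LRP1 and VLDLR) the assignment of shared reads is therefore uncertain.

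Counts were filtered with edgeR's filterByExpr, scaled by TMM and tested by edgeR's quasi-likelihood test (edgeR 4.0.16, R 4.3.3) over 15528 genes, with no covariate. FPKM values were used as levels and in the limma alternatives. The procedure was tested on simulated data. The named genes were all members, PAIP1 and up to 5 tested genes with the lowest adjusted p from each other list. Members, lists and tests were chosen with earlier results of these data known. Coordinates and transcript lengths come from GENCODE 44, matched by gene ID, and promoter windows from RefSeq. Alternatives used RLE and upper-quartile factors, other filters, DESeq2 1.42.0, limma 3.58.1 on log2(FPKM + 0.1) and log2(FPKM + 1), a replicate block, and each library left out in turn.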

Additional observations from a re-analysis of the deposited data

How the results depend on the processing

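Counts of calls moved with the libraries more than with the scaling. RLE or upper-quartile factors, a filter of at least 10 counts in 3 libraries, or no filter kept the counts over all genes, over the members and over the other lists together within 1.5 times their values, while the PPARA targets that fell went from 1 to 0 with upper-quartile factors, and DESeq2 called 13 lower members. With limma on log2(FPKM + 0.1), log2(FPKM + 1) and log2(FPKM + 0.1) without a filter, 607, 588 and 193 genes in all were lower. The last of these gave 256 genes higher in all, 0 members higher, 3 members lower and 0 other-list genes higher. The members lower at 0.5 of Ctrl or less numbered 3, 0 and 2, and the other-list genes lower 9, 9 and 4, in the same order; log2(FPKM + 1) gave 0 other-list genes higher. Leaving out each library in turn gave 187 to 1857 genes higher and 269 to 1952 lower in all, 0 to 1 members higher, 4 to 17 lower and 2 to 6 lower at 0.5 of Ctrl or less, and 0 to 3 other-list genes higher and 6 to 30 lower. The lowest member count, 4, came without the third Ctrl library and the highest, 17, without the third siPAIP1 library. LRP1 ranged from -0.63 without the third siPAIP1 library, the reversed sign, to 0.57 without the second, and the cause was not tested. APOC3, APOM and CREB3L3 kept their calls in 15 of 15 alternatives and VLDLR in 14, losing it in limma without a filter (adjusted p = 0.0676), as did the other called members (0.0550 for APOL2 to 0.355 for LIPG, LIPC 0.0816). APOA1, SCARB1 and LIPG also lost it in both other limma fits (SCARB1 0.0595 and 0.0619) and MTTP with log2(FPKM + 1) (0.0723). PAIP1 was called in 15 of 15. The difference in apolipoprotein share, -0.0557 percentage points, ranged from -0.0605 to -0.0480, and was -0.0596 with the read-through APOC4-APOC2 counts added, an alternative chosen after seeing the data.

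The labels number the replicates without stating that same-numbered libraries form pairs, so the numbers were not taken as pairs. Deviations of same-numbered libraries from their group means had correlations of 0.346, -0.374 and -0.17. These values cannot decide the pairing, because each group held 3 libraries and the third siPAIP1 library stood apart. A fit with a replicate block gave 366 genes higher and 459 lower in all, 0 members higher and 7 lower, 4 members lower at 0.5 of Ctrl or less, and 0 higher and 8 lower genes in the other lists. The members not called in it were APOA1, APOL2, MTTP, SCARB1, LIPG and ANGPTL4 (adjusted p from 0.0506 to 0.0721). Few reads limit MTTP, CETP and APOC2.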
